A study of Mus musculus with 77 samples.

Results

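Whole-testis RNA of Stra8-Cre:RiboTag mice 4d after retinoic acid (RA) was set against the same RNA at time 0. The comparison used the arrays labelled Stra8-cre, total RNA, and 4d (2 arrays) or time 0 (4 arrays), 6 of the 77 arrays of the series. The series profiled neonatal mouse testes in which the first wave of sperm production was synchronised. Per the labels, FVB/N animals were given BDAD (WIN,18446), which blocks the conversion of retinal to RA, for 9 days. Time 0 animals were killed then, and 4d animals were injected with RA and sampled 4d later, so both groups carry the same alleles and had the same BDAD treatment. RiboTag is a ribosomal protein allele that gains an epitope tag after Cre recombination. The Stra8-cre driver tags germ cell ribosomes and the Amh-cre driver those of Sertoli cells, and the ribosomes with their RNA can then be immunoprecipitated (IP). Total RNA holds the RNA of every testis cell, whichever cells recombined. No vehicle-injected or uninjected arrays of the same age were analysed here, so RA, the injection, age and the end of BDAD cannot be told apart. The labels give no ages and do not say whether replicates were separate animals. The p-values cover only the spread among arrays within groups, pooled over the 77 arrays of the series, which may be technical.

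In the neonatal testis, spermatogonial stem cells are kept undifferentiated by GDNF, a Sertoli cell ligand read by the receptor pair GFRA1 and RET. RA moves spermatogonia into a differentiating state marked by the receptor KIT, and after further divisions the germ cells begin meiosis. Dmrtb1 encodes DMRT6, a transcription factor of late differentiating spermatogonia. Sertoli cells nurse the germ cells, and Leydig cells between the tubules make androgen.

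At 4d the whole testis had more RNA from genes of differentiating and early meiotic germ cells, with 8 of 20 and 10 of 36 tested list members called higher and none lower. The lists were chosen with earlier results of these data known, so the counts are descriptive. Dmrtb1 was 5.25-fold higher, Kit 2.48-fold higher and the meiotic axis gene Sycp3 3.00-fold higher. Steroid enzyme genes went both ways: Hsd3b6 was 6.87-fold higher, Hsd17b1 5.5-fold lower and Hsd17b3 4.66-fold lower. The Sertoli cell hormone gene Amh was 2.33-fold lower. A gene was called when its limma adjusted p, over 19938 genes, was under 0.05 and its difference was at least 2-fold. By that rule 126 genes (0.632%) were higher and 71 (0.356%) were lower at 4d, 197 (0.988%) in all. The median difference over all genes was -0.016 on the log2 scale. Intensities are RMA values on a linear scale, differences are log2 with the standard error (SE) of the fit, and levels are not compared between genes. In whole-testis RNA, fewer cells of a type and less RNA per cell cannot be told apart.

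The arrays of the compared groups behaved as follows. The 4d arrays correlated with each other at r = 0.997 across genes and with the time 0 arrays at 0.98 to 0.988. Time 0 arrays 1 and 4 correlated at 0.998 and arrays 2 and 3 at 0.996, against 0.989 to 0.993 across these pairs, so the time 0 group holds 2 pairs of arrays. The number of calls was 222 with time 0 arrays 1 and 4 alone and 244 with arrays 2 and 3 alone, against 197 with all 4, subsets chosen after seeing the data. Replicates 2 and 3 of the Stra8 total arrays labelled 4h correlated at 0.994 with the 4d arrays and at 0.979 to 0.985 with time 0. They entered the fit through the shared spread, and 197 genes were called without the arrays labelled 4h.

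The 3 marker genes of the step from stem cell to differentiating spermatogonium separated the groups. Dmrtb1 had intensities of 1083.6 and 888.4 at 4d, against 187.5, 208.1, 224.9 and 138.9 at time 0 (log2 2.39 ± 0.44, limma adjusted p = 0.000114). Kit, the receptor for stem cell factor, had 2321.4 and 2029.4 at 4d, against 975.8, 763.1, 848.9 and 923.1 at time 0 (1.31 ± 0.25, limma adjusted p = 0.000147). For both genes every 4d array lay above every time 0 array. Gfra1 had 1006.5 and 1023.5 at 4d, against 1756.2, 1736.8, 1906.7 and 1879.4 at time 0 (-0.84 ± 0.15, limma adjusted p = 9.91e-05). Its groups did not overlap either, but the 1.79-fold difference was under the 2-fold minimum, so Gfra1 was not called.

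**Figure D1:**
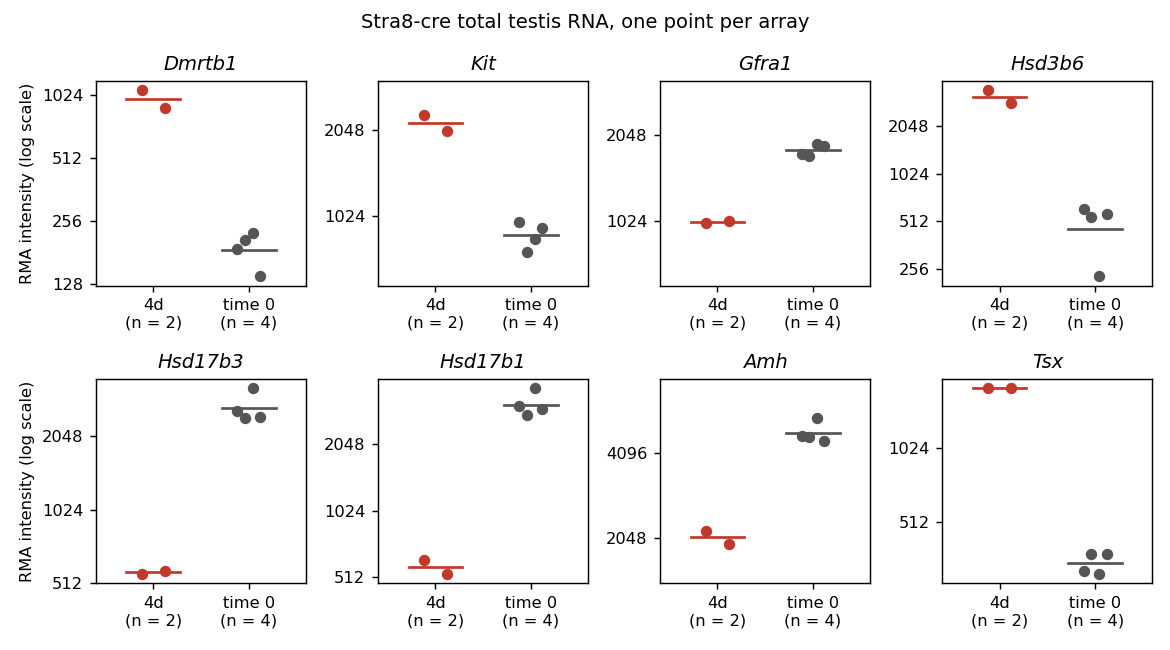
RMA intensity (log axis) of 8 genes in Stra8-cre total RNA, 1 point per array, with 4d (red, 2 arrays) left of time 0 (grey, 4 arrays) and a line at each group's mean of log2 values. The 4d arrays lie above all time 0 arrays for Dmrtb1, Kit, Hsd3b6 and Tsx and below them for Gfra1, Hsd17b3, Hsd17b1 and Amh.

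Differentiating spermatogonia genes were the list with the largest median shift among those in the plot of gene lists. Its members were chosen with earlier results of these data known, so this rank and the counts are descriptive. Of 20 tested members, 8 were called higher and 0 lower, with a list median of 0.87. Beside Dmrtb1 and Kit these were Meioc, Crabp1, Rhox13, Tbx1, Esx1 and Dlx1. Meioc, whose product keeps germ cells in meiotic prophase, had 1632.6 and 1288.7 at 4d, against 385.0, 429.6, 268.5 and 321.4 at time 0 (2.07 ± 0.44, limma adjusted p = 0.000647). Crabp1, a cytosolic RA-binding protein, had 6601.7 and 6870.4 at 4d, against 1385.1, 2262.5, 1723.7 and 1508.7 at time 0 (1.99 ± 0.27, limma adjusted p = 1.03e-06). The X-linked homeobox gene Rhox13 had 539.6 and 451.2 at 4d, against 132.5, 149.3, 137.3 and 121.2 at time 0 (1.87 ± 0.33, limma adjusted p = 4.62e-05). In all 3 genes the groups did not overlap, and Rhox13 at time 0 lay below the median signal of its arrays (290.3 to 300.5). Sohlh1 and Sohlh2, transcription factors of early spermatogonial differentiation, differed by 0.49 ± 0.14 and 0.89 ± 0.20, under the fold minimum (limma adjusted p = 0.0103 and 0.00132). Ccnd2, a D cyclin of the same list, went the other way at -0.87 ± 0.16 (limma adjusted p = 9.8e-05).

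Stra8, which licenses meiosis in response to RA, had 178.2 and 436.1 at 4d, against 153.6, 164.1, 217.0 and 110.5 at time 0. The 4d arrays disagreed and the first lay inside the time 0 range, and the difference of 0.83 ± 0.33 did not pass (limma adjusted p = 0.0756). The value rests on which 4d array is used: it was 1.48 and called without replicate 1, and 0.18 without replicate 2 (limma adjusted p = 0.872). With time 0 arrays 1 and 4 alone it was 1.10 and called, and with arrays 2 and 3 alone it was 0.56 and not called.

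Meiotic genes were higher as a group. All 36 tested members had a difference above 0 (median 0.73), 24 had an adjusted p under 0.05 and were higher (7.93% of all genes), and 10 were called higher and 0 lower. Sycp3, of the chromosome axis, had 1657.2 and 1483.3 at 4d, against 522.6, 671.5, 396.1 and 540.1 at time 0 (1.58 ± 0.20, limma adjusted p = 3.87e-07). Iho1, which takes part in making meiotic DNA breaks, had 438.8 and 460.6 at 4d, against 134.0, 171.4, 145.0 and 163.3 at time 0 (1.56 ± 0.28, limma adjusted p = 6.99e-05). Smc1b, a meiotic cohesin subunit, had 1095.1 and 987.6 at 4d, against 430.9, 391.6, 274.6 and 444.0 at time 0 (1.46 ± 0.32, limma adjusted p = 0.00105). The lowest time 0 value of Sycp3 and Smc1b was that of array 3, and no 4d array overlapped the time 0 range. The other called members, Meioc apart, were Tex11 (1.33), Sycp1 (1.22), Mei1 (1.14), Mei4 (1.12), Stag3 (1.03) and Syce1 (1.02), which act in synapsis, break formation or cohesion. Rec8, another meiotic cohesin subunit, had 285.1 and 445.8 at 4d, against 262.5, 325.8, 321.9 and 268.9 at time 0 (0.28 ± 0.20, limma adjusted p = 0.413). For later germ cells, 0 of 25 pachytene and spermatid genes were called, against 0.988% of all genes.

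Promoters of the meiotic list were searched for the letters CACGTG, an E-box that reads the same on both strands, because several basic helix-loop-helix factors of germ cells bind E-boxes. In the 250 bases before the start it was found for 8 of 29 tested meiotic genes with a promoter (27.6%). For all tested genes it was 1266 of 15614 (8.1%), for genes called higher 15 of 104 (14.4%) and for genes called lower 5 of 50. The called meiotic genes with a match were Stag3, Sycp1 and Sycp3. Their windows are shown because they are the called members that hold the letters. They are RefSeq sequence on build GRCm38.p6, 5′ to 3′ on the gene's strand up to the base before the start, with the match in capitals.
Stag3: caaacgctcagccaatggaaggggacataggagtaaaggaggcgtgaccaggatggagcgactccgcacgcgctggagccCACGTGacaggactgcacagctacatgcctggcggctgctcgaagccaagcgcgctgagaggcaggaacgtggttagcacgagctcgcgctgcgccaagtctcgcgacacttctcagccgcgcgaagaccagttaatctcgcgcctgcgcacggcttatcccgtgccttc
Sycp1: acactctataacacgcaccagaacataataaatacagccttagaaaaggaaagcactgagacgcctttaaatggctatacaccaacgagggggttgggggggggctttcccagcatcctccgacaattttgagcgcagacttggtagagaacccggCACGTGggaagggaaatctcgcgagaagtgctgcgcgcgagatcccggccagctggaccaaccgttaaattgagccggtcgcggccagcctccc
Sycp3: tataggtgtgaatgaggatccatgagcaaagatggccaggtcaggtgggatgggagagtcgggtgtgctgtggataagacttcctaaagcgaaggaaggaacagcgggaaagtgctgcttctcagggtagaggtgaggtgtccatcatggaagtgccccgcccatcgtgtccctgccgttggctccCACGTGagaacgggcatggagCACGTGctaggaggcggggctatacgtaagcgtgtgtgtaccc
Stag3 lies at chr5:138280259-138280508 on the + strand and its match begins at base -170 from the start. Sycp1 lies at chr3:102936101-102936350 on the - strand, with the match at -94. Sycp3 lies at chr10:88459337-88459586 on the + strand, with matches at -64 and -43. A match describes letters in this window and is no evidence of binding.

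Germ cell genes in general differed less. Of the 21 germ cell and piRNA pathway genes 0 were called. At an adjusted p under 0.05, 5 were higher (7.93% of all genes), and the median was 0.32. For 13 of the 21 both 4d arrays lay above every time 0 array (18.5% of all genes), and for 1 below (20.5%). Ddx4, a germ cell RNA helicase, had 2805.1 and 2776.1 at 4d, against 1974.6, 2257.4, 1974.7 and 2151.5 at time 0 (0.42 ± 0.16, limma adjusted p = 0.0535). Dazl, an RNA-binding protein of germ cells, differed by 0.75 ± 0.12 (limma adjusted p = 9.23e-06). The summed germ cell signal was 29884 and 30724 at 4d, against 20531 to 23804 at time 0, and its part in the differentiating and meiotic lists was not tested.

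Genes of the GDNF and FGF signalling list, which holds the ligand gene Gdnf as well as targets, were on balance lower. Of 18 tested, 1 was called lower, 9 had an adjusted p under 0.05 and were lower (9.1% of all genes), and 1 was higher, with a median of -0.46. Egr2, a zinc finger factor induced by GDNF in cultured stem cells, had 511.4 and 456.2 at 4d, against 1310.4, 933.9, 1059.5 and 1095.1 at time 0 (-1.18 ± 0.15, limma adjusted p = 2.45e-07). Egr2 is also an immediate early gene, and of 14 tested genes of that list it was the 1 called (median -0.14). The summed immediate early and stress signal was 11057 and 10310 at 4d, against 11927 to 15268 at time 0. Dusp6, a phosphatase that dampens ERK, differed by -0.92, Spry4 and Lhx1 by -0.65, and Gdnf itself by -0.56. Etv5, a GDNF target needed for stem cell renewal, had 691.0 and 600.6 at 4d, against 845.7, 731.2, 856.1 and 902.0 at time 0 (-0.37 ± 0.19, limma adjusted p = 0.195). The 29 genes of undifferentiated spermatogonia, which share members with this list, had 0 calls and a median of -0.11. Zbtb16, which encodes PLZF of undifferentiated spermatogonia, had 3323.8 and 3387.0 at 4d, against 3041.3, 3222.8, 3012.4 and 2980.8 at time 0 (0.13 ± 0.11, limma adjusted p = 0.484).

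**Figure D2:**
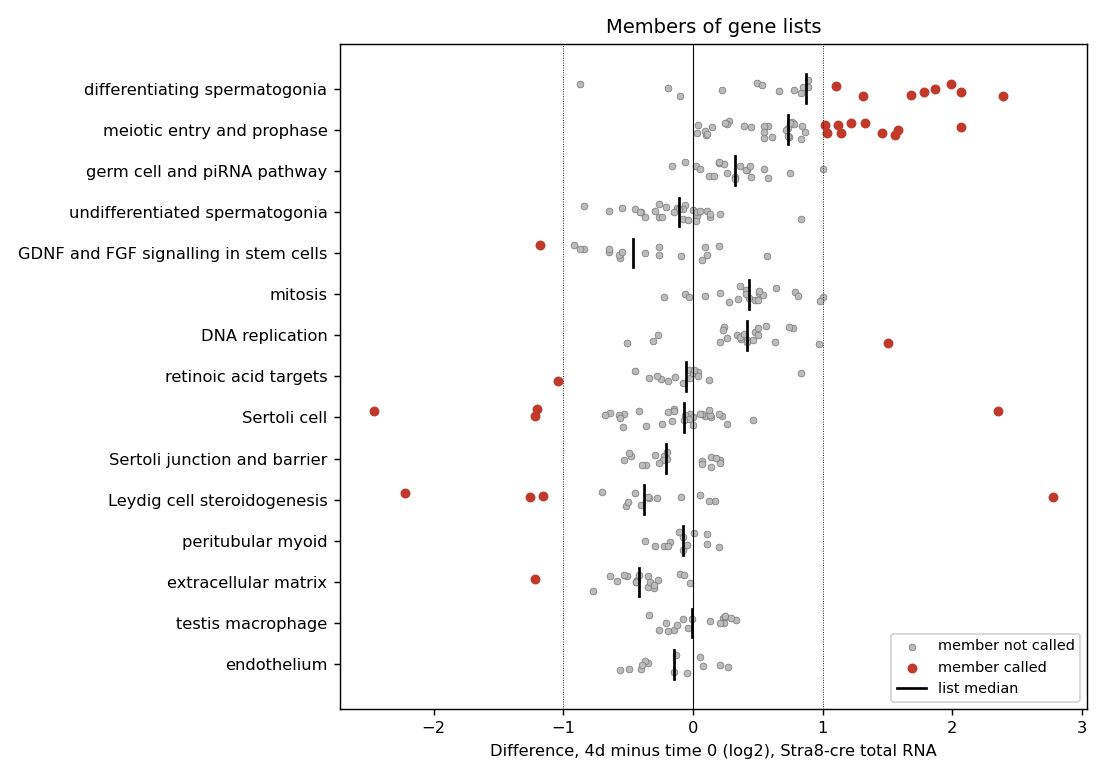
Difference between 4d and time 0 (log2, Stra8-cre total RNA) for each tested member of 15 gene lists, with called members in red, the others in grey and a black bar at the list median. Called members of the differentiating and meiotic lists lie right of 0, the called GDNF and FGF list member Egr2 lies left of 0 at -1.18, and those of the Sertoli and Leydig lists lie on both sides.

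Cell cycle genes shifted upward by less than 2-fold. Among 21 mitosis genes 0 were called and 11 had an adjusted p under 0.05 and were higher (median 0.43). Over all tested genes 7.93% were higher and 9.1% lower at that adjusted p. Among 23 DNA replication genes 1 was called higher, 14 had an adjusted p under 0.05 and were higher and 1 lower (median 0.42). Ccne2, a cyclin of S phase entry, had 949.3 and 999.2 at 4d, against 349.2, 330.0, 332.9 and 362.0 at time 0 (1.5 ± 0.29, limma adjusted p = 0.000159). Of the D cyclins, Ccnd1 had 2672.7 and 2373.2 at 4d, against 1057.2, 1055.7, 1091.8 and 1068.6 at time 0 (1.24 ± 0.25, limma adjusted p = 0.00043). Ccnd2 had 2990.8 and 3073.5 at 4d, against 5583.2, 5249.7, 6172.1 and 5150.4 at time 0. So these 2 D cyclins went in opposite directions, each with groups that did not overlap, and Ccnd2 stayed under 2-fold. Time 0 array 3 had the highest summed mitosis signal of its group, 34192, inside the 4d range of 33268 to 40335, and the other time 0 arrays had 25237 to 26977.

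Of direct RA targets, none was called higher at 4d. Among 16 tested genes 0 were called higher and 1, Stra6, was called lower, with a median of -0.05. Over all genes 0.632% were called higher and 0.356% lower, so 0 calls higher among 16 genes is near that share. Cyp26a1, the RA-degrading enzyme gene that RA induces in many cells, had 80.8 and 75.2 at 4d, against 69.8, 78.8, 93.3 and 76.2 at time 0 (-0.02 ± 0.37, limma adjusted p = 0.984), close to the floor of the arrays. Rarb, an RA receptor gene with an RA response element, had 125.1 and 156.5 at 4d, against 138.7, 131.5, 160.2 and 132.0 at time 0 (limma adjusted p = 0.997). In Cyp26a1 and Rarb the groups overlapped. Dhrs3, a retinal reductase, differed by -0.34 ± 0.26 (limma adjusted p = 0.457). Stra6, the cell surface receptor for retinol carried by RBP4, had 1147.4 and 1919.8 at 4d, against 2977.8, 2708.0, 3876.9 and 2790.5 at time 0 (-1.04 ± 0.29, limma adjusted p = 0.00749). It lost the call under 4 settings, with -0.67 without 4d replicate 1 and -0.93 without time 0 replicate 3. Its carrier Rbp4 had 798.3 and 846.1 at 4d, against 391.3, 363.3, 391.9 and 362.9 at time 0 (1.12 ± 0.27, limma adjusted p = 0.00222). In the list of retinoid synthesis and transport 2 of 14 members were called higher (Crabp1 and Rbp4) and 1 lower (Stra6). Of 6 retinoid receptors 0 were called, against 0.988% of all genes called either way.

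Sertoli cell genes that passed the test were more often lower. Of the 33 tested, 10 were lower and 2 higher at an adjusted p under 0.05, against 9.1% and 7.93% of all genes. Called were 3 lower and 1 higher, and the list median was -0.07. The arrays of the groups did not overlap for 16 members that were lower and 4 that were higher, against 20.5% of all tested genes non-overlapping and lower at 4d and 18.5% non-overlapping and higher. Amh, the hormone that regresses the Müllerian duct, had 2179.3 and 1959.8 at 4d, against 4702.6, 4660.6, 5442.5 and 4513.4 at time 0 (-1.22 ± 0.27, limma adjusted p = 0.000905). Hsd17b1, an enzyme that reduces the weak steroids estrone and androstenedione, had 607.6 and 526.5 at 4d, against 3059.8, 2797.4, 3697.2 and 2957.5 at time 0 (-2.46 ± 0.27, limma adjusted p = 5.89e-08). Tsx, an X-linked testis gene, had 1780.3 and 1774.8 at 4d, against 326.1, 381.8, 316.2 and 380.5 at time 0 (2.35 ± 0.41, limma adjusted p = 4.38e-05). For these 3 genes the groups were fully apart. The Sertoli identity genes Sox9, at -0.15 ± 0.17 (limma adjusted p = 0.672), and Wt1, at -0.02, did not pass the test. Vnn1, a pantetheinase, differed by -1.20 ± 0.34 (limma adjusted p = 0.0105) and was not called without 4d replicate 1 (-1.17) or without 4d replicate 2 (-1.23). The FSH receptor gene Fshr had 1594.0 and 1400.7 at 4d, against 2251.2, 2448.1, 2590.6 and 2270.5 at time 0 (-0.68 ± 0.16, limma adjusted p = 0.00261), under the fold minimum. The summed Sertoli signal was 105515 and 110053 at 4d, against 115683 to 126761 at time 0. Of 18 junction and barrier genes 0 were called (median -0.21), against 0.988% of all genes.

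Hormone and paracrine genes of the androgen and FSH response list gave 1 call higher (Tsx) and 2 lower of 15. At an adjusted p under 0.05, 7 were lower and 1 was higher (median -0.33), against 9.1% and 7.93% of all genes. The list shares members with the Sertoli list. Inhba, the activin A subunit gene, had 459.1 and 459.3 at 4d, against 1330.4, 1127.4, 1638.8 and 1294.2 at time 0 (-1.54 ± 0.22, limma adjusted p = 2.06e-06). The estrogen receptor gene Esr2 had 135.8 and 164.2 at 4d, against 352.0, 275.0, 364.0 and 314.2 at time 0 (-1.12 ± 0.13, limma adjusted p = 5.89e-08). Without 4d replicate 1 Esr2 was at -0.98, just under 2-fold.

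Steroid enzyme genes held both the largest rise and the largest falls among the named genes. Hsd3b6, a hydroxysteroid dehydrogenase isoform of androgen synthesis, had 3452.3 and 2870.6 at 4d, against 614.7, 546.6, 230.3 and 570.7 at time 0 (2.78 ± 0.58, limma adjusted p = 0.000512). Hsd3b1, its sister isoform, had 622.9 and 633.9 at 4d, against 956.3, 838.3, 825.8 and 1004.6 at time 0 (-0.52 ± 0.18, limma adjusted p = 0.0397). So the pair went in opposite directions, and Hsd3b1 stayed under 2-fold. Hsd17b3, which makes testosterone from androstenedione, had 558.6 and 576.9 at 4d, against 2591.7, 2420.7, 3204.8 and 2445.7 at time 0 (-2.22 ± 0.35, limma adjusted p = 1.24e-05). Cyp17a1, upstream of it, had 2896.1 and 4736.0 at 4d, against 5566.8, 5475.0, 4520.7 and 4809.3 at time 0 (-0.45 ± 0.40, limma adjusted p = 0.535). Star, which brings cholesterol into mitochondria, differed by -0.34 ± 0.28 (limma adjusted p = 0.506), and for both Cyp17a1 and Star the groups overlapped. Akr1c14, an enzyme that reduces androgens, was lower by -1.16 ± 0.24 (limma adjusted p = 0.000464) and fell just short at -0.98 with time 0 arrays 2 and 3 alone. Thbs2, a matrix glycoprotein gene on the Leydig list, was lower by -1.26 ± 0.21 (limma adjusted p = 2.04e-05). In the Leydig list 1 of 16 members was called higher and 3 lower (median -0.38), against 0.632% and 0.356% of all genes. Insl3 and Lhcgr were not tested here. One of the 3 is Hsd17b3, which lay on the Sertoli cell side when genes were placed by IP RNA, as given below. The counts and summed signal of this list are therefore not those of Leydig cells alone. The summed Leydig signal was 32066 and 34727 at 4d, against 38258 to 40511 at time 0.

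Other somatic cell types gave few or no calls, but only 0.988% of all genes were called, so 0 calls in a short list is near that share. In the extracellular matrix list 0 of 19 members were above 0. Of the 19, 10 had an adjusted p under 0.05 and were lower (9.1% of all genes). For 17 of them both 4d arrays lay below every time 0 array (20.5% of all genes). Postn, a matrix protein gene, was called lower (-1.22 ± 0.29, limma adjusted p = 0.00187). Called genes outside the lists, named after their values were seen, included the matrix genes Vcan (-1.31) and Dpt (-1.33) and the matrix protease gene Mmp2 (-1.26). For peritubular myoid cells 0 of 13 genes were called, and Acta2, smooth muscle actin, had 7260.3 and 7598.1 at 4d, against 7662.9, 8100.1, 7945.1 and 7597.8 at time 0. For macrophages 0 of 17 were called, and Lyz2, lysozyme, had 1056.4 and 1259.9 at 4d, against 1180.9, 1356.7, 1331.9 and 1265.3 at time 0. For endothelium 0 of 13 were called, with 4 lower at an adjusted p under 0.05 (9.1% of all genes). The summed signal was 7787 and 8097 at 4d against 7659 to 8751 at time 0 for macrophages, and 10478 and 11134 at 4d against 12832 to 13683 at time 0 for endothelium. For peritubular myoid cells it was 23848 and 24088 at 4d against 26197 to 26743 at time 0, though 0 members had an adjusted p under 0.05.

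The remaining genes of the strongest differences had these values. Tlcd4, a membrane protein gene, had 1258.7 and 1055.8 at 4d, against 290.0, 204.4, 159.7 and 216.3 at time 0 (2.44 ± 0.40, limma adjusted p = 2.15e-05). Cnksr2, a Ras pathway scaffold, had 1137.9 and 799.6 at 4d, against 203.1, 180.6, 188.2 and 194.3 at time 0 (2.32 ± 0.34, limma adjusted p = 3.71e-06). Also higher were Slc27a2, a fatty acid transporter (2.16), Tc2n (2.12), the transcription factor gene Runx3 (2.00), the adhesion molecule gene Epcam (1.93) and the ubiquitin ligase gene Rnf128 (1.89). Lower were the ion exchanger gene Slc24a5 (-1.84), the calcium sensor gene Vsnl1 (-1.82), the glutamine transporter gene Slc38a1 (-1.66), Gask1a (-1.61), the phospholipase gene Pla2g5 (-1.45), the aminopeptidase gene Enpep (-1.44), the metalloprotease gene Mmp23 (-1.42), C1qtnf3 (-1.41) and Tmem98 (-1.35). These 16 genes were picked by size of difference among called genes whose arrays did not overlap. With the mean of its probe sets Slc38a1 was at -1.22.

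Most genes called higher belonged to the germ cell side of the testis. Each gene was placed by its mean level in germ cell IP RNA (Stra8 line) against Sertoli cell IP RNA (Amh line) over times 0, 12h, 24h and 48h, arrays that the 4d comparison does not use. Of the 126 genes called higher, 76 (60.3%) were at least 2-fold higher in germ cell IP RNA and 19 (15.1%) in Sertoli cell IP RNA. Of the 71 genes called lower, 3 (4.2%) were at least 2-fold higher in germ cell IP RNA and 34 (47.9%) in Sertoli cell IP RNA. Over all tested genes the shares were 8.1% and 10.3%. The Sertoli cell side also held Leydig list genes. On the log2 scale of germ cell minus Sertoli cell IP, the Leydig list median was -1.1 and the Sertoli list median -2.23. Hsd3b6 lay near the middle (0.30), Dmrtb1 (1.30), Kit (2.90) and Sycp3 (3.97) on the germ cell side, and Hsd17b1 (-1.80), Hsd17b3 (-2.50) and Amh (-3.49) on the Sertoli cell side. The 19 genes on the Sertoli side that were called higher include Tsx (-1.57), Lpar3, a lysophosphatidic acid receptor gene (-1.33), and Slc2a12, a glucose transporter gene named after its values were seen (-2.50).

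**Figure D3:**
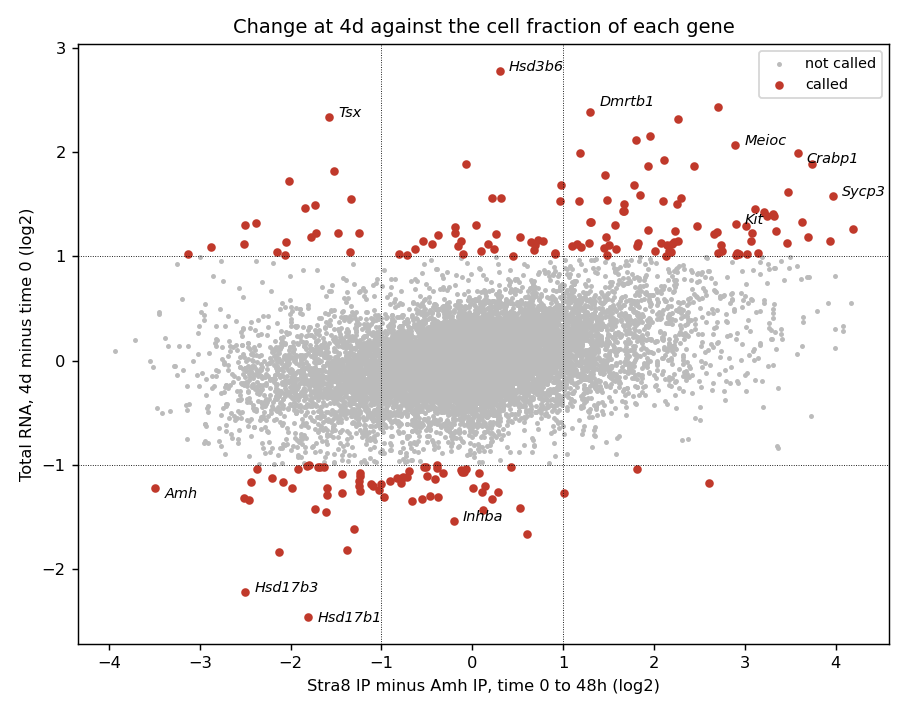
Change in Stra8-cre total RNA at 4d against time 0 (y, log2) and germ cell IP minus Sertoli cell IP level at times 0 to 48h (x, log2) for the 19938 tested genes, with called genes in red and dotted lines at 2-fold. Of the 126 genes called higher, 76 lie right of the right dotted line, and 34 of the 71 called lower lie left of the left one.

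The X chromosome held 21 of the 126 genes called higher (16.67%), against 739 of 19852 tested genes with a known chromosome (3.72%). Among genes at least 2-fold higher in germ cell IP RNA, X-linked genes were 13 of the 76 called higher (17.11%) and 80 of 1604 tested (4.99%). Of the 71 genes called lower 5 were X-linked (7.04%). Named after their values were seen, the X-linked genes called higher include the homeobox genes Rhox13 and Esx1, the germ cell genes Tex11, Taf7l (1.19) and Usp26 (1.15), the RNA export gene Nxf3 (1.47), the receptor gene Gpr50 (1.59) and the kinase gene Rps6ka6 (1.68). Nxf3 had 8302.9 and 7944.2 at 4d, against 3411.0, 3905.6, 1298.4 and 4312.8 at time 0. Its time 0 array 3 was far below the others, and both 4d arrays were still above all of them. The count of X-linked genes called higher lay between 18 and 27 over the alternative settings that kept the 2-fold minimum.

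Of the 71 genes called lower 3 were miRNA genes, of 297 miRNA genes tested, against 0.356% of all 19938 genes called lower. These 3 are named after their values were seen. The array measures the primary or precursor transcript, not the mature miRNA. Mir181b-1 had 141.7 and 77 at 4d, against 268.0, 244.6, 237.7 and 214.5 at time 0 (-1.20 ± 0.23, limma adjusted p = 0.000147). Mir181b-2, on another chromosome, had 134.9 and 109.1 at 4d, against 345.2, 188.5, 210.9 and 303.4 at time 0 (-1.07 ± 0.19, limma adjusted p = 4.88e-05). Mirlet7c-1 had 123.5 and 73.6 at 4d, against 256.7, 156.7, 132.5 and 264.9 at time 0 (-1.02 ± 0.25, limma adjusted p = 0.00269). All 3 signals were low on this array, and the 3 calls rest on 4d replicate 2. Without it the differences were -0.76 (limma adjusted p = 0.0842) for Mir181b-1, -0.91 (0.0128) for Mir181b-2 and -0.65 (0.224) for Mirlet7c-1, all under 2-fold. Mir181b-2 and Mirlet7c-1 also fell under 2-fold without time 0 replicate 1 (-0.92 and -0.89) or replicate 4 (-0.98 and -0.87). Both Mir181b genes give the same mature miRNA, so their shared seed (bases 2 to 8, in capitals) is printed once beside that of let-7c, from RefSeq on GRCm38.p6.
miR-181b-5p: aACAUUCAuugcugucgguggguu
let-7c-5p: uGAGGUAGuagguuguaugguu
Lin28b, which blocks let-7 maturation, was called higher (1.19 ± 0.22, limma adjusted p = 0.000137), with 448.0 and 439.2 at 4d, against 216.1, 180.9, 166.6 and 220.2 at time 0. It too was named after its values were seen.

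The same time step in germ cell IP RNA, from 2 arrays at 4d and 2 at time 0 of the Stra8 line, asks which changes appear in RNA on tagged germ cell ribosomes. These arrays are none of the 6 above, though the labels do not say whether IP and total RNA came from the same testes. In IP RNA 169 genes (0.848%) were called higher and 219 (1.10%) lower. Of the genes called higher 53 were shared, 42.1% of the total RNA calls and 31.4% of the IP calls. Of the genes called lower 7 were shared, 9.9% of the total RNA calls and 3.2% of the IP calls, and 0 genes were called in opposite directions. Dmrtb1 had 2283.8 and 2387.6 in IP RNA at 4d, against 565.2 and 281.4 at time 0 (2.55 ± 0.51, limma adjusted p = 0.000144), beside 2.39 in total RNA. Kit had 3775.2 and 3780.1 in IP RNA at 4d, against 1293.3 and 929.5 at time 0 (1.78 ± 0.29, limma adjusted p = 4.05e-06).

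The stem cell genes differed more in IP RNA. Germ cell signal was itself lower in IP RNA at 4d. The summed signal of the germ cell and piRNA list was 46798 and 55356 there, against 66110 and 61222 at time 0. Its list median was -0.3 in IP RNA and 0.32 in total RNA. The part of this fall in the differences below was not tested. Gfra1 had 1134.2 and 1309.5 in IP RNA at 4d, against 4764.2 and 5235.3 at time 0 (-2.03 ± 0.18, limma adjusted p = 4.53e-12). The total RNA change minus the IP change of Gfra1 was 1.19 ± 0.24 (limma adjusted p = 0.000507). Etv5, by its probe set of highest mean, changed by -0.37 in total RNA and -1.26 in IP RNA, with a difference of 0.89 ± 0.29 that stayed under 2-fold. Of the 29 undifferentiated spermatogonia genes 0 were called in total RNA and 15 were called lower in IP RNA (1.1% of all genes). In the difference itself 10 of the 29 were called, counted in either direction (1.41% of all genes). Meiotic genes had more calls in total RNA. Of 36, 10 were called higher in total RNA (0.632% of all genes) and 2 in IP RNA (0.848%). In the difference 3 were called, again in either direction. Sycp3 had 1806.8 and 2573.1 in IP RNA at 4d, against 2100.1 and 1942.5 at time 0 (0.09 ± 0.24, limma adjusted p = 0.865). Its total change minus its IP change was 1.49 ± 0.31 (limma adjusted p = 0.000989).

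In all, 281 genes (1.41%) were called in the difference between total and IP changes, 167 (0.838%) with the higher change in total RNA and 114 (0.572%) with the lower. Of the 197 genes called in total RNA, 24 were also called in the difference, 14 higher and 10 lower. The largest differences upward were in the adhesion gene Mpzl2 (2.02 ± 0.31), Ccdc152 (1.73), Lpar3 (1.59) and the serpin gene Serpinb10 (1.59), and downward in the tetraspanin gene Cd63 (-2.21 ± 0.25), Nexmif (-1.79), the repressor gene Hic1 (-1.56) and the actin-binding gene Tmsb4x (-1.56). Of these 8 genes only Lpar3 was called in total RNA, with 1160.4 and 1267.4 at 4d, against 419.6, 412.0, 413.9 and 413.0 at time 0. The 4d IP arrays differed in somatic signal, which was higher in replicate 1. The summed Sertoli signal was 73071 in replicate 1 and 44348 in replicate 2, against 40978 and 54254 at time 0, and the macrophage gene Lyz2 had 975.4 and 207.7 at 4d, against 204.1 and 236.5 at time 0. Hsd3b6 had 1523.0 and 515.7 in these 4d IP arrays, against 172.9 and 100.7 at time 0. The part of this somatic signal in the 281 calls was not tested, but the count was 148 without 4d IP replicate 1 and 730 without 4d IP replicate 2. Leaving out a time 0 IP array gave 150 without replicate 1 and 565 without replicate 2.

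**Figure D4:**
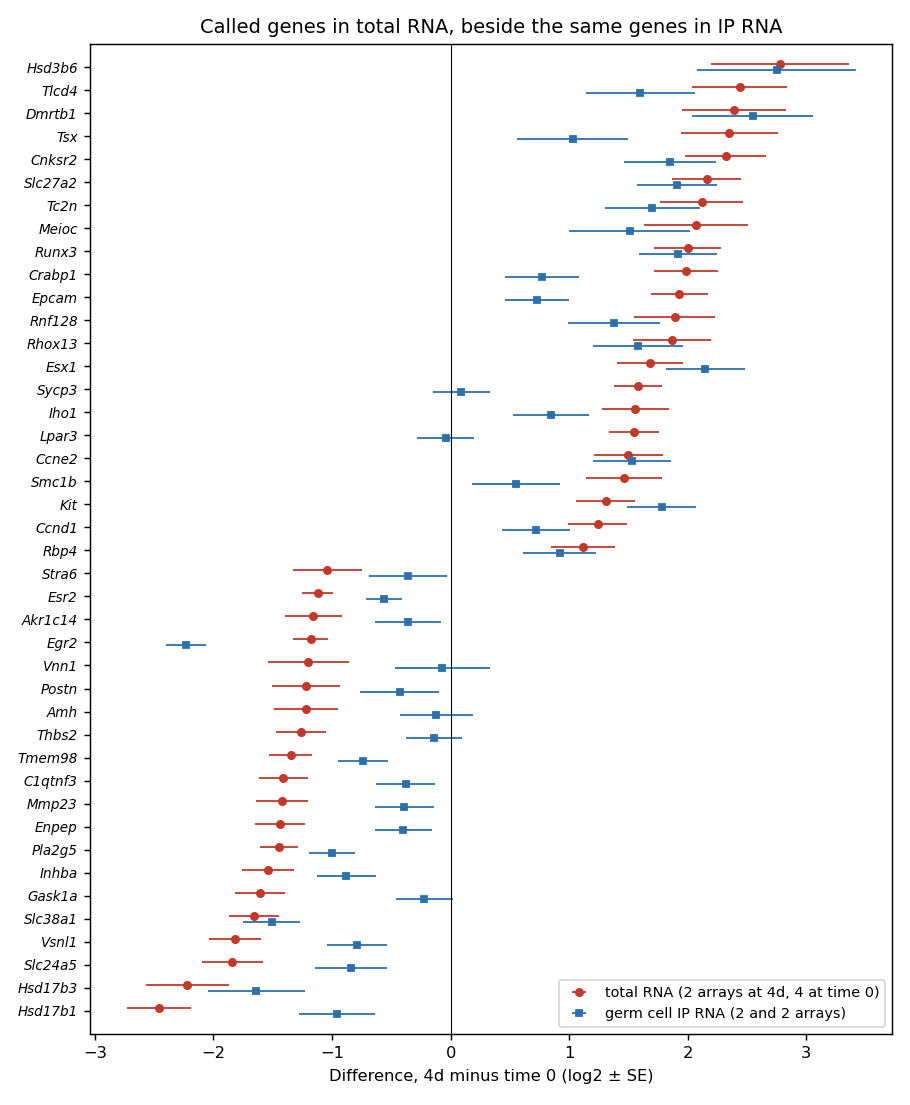
Difference between 4d and time 0 (log2 ± SE of the fit) in total RNA (red circles, 2 and 4 arrays) and in germ cell IP RNA (blue squares, 2 and 2 arrays) for named genes called in total RNA. Hsd3b6, Dmrtb1 and Kit lie on the same side at a similar size in both, while Sycp3 is at 1.58 in total RNA and 0.09 in IP RNA.

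Total RNA of the Amh-cre line at 4d (2 arrays) against time 0 (2 arrays) offers the same step in other animals, but the arrays labelled 4d there did not match this one. RA targets were high in them: Cyp26a1 had 419.5 and 431.5 in Amh total RNA labelled 4d, against 53.0 and 76.0 at time 0 (2.75 ± 0.43, limma adjusted p = 1.68e-05). Dmrtb1 had 213.9 and 196.8 in Amh total RNA labelled 4d, against 169.3 and 149.0 at time 0 (0.37 ± 0.51, limma adjusted p = 0.752). Gfra1, at 1736.6 and 1722.6 in arrays labelled 4d against 1351.6 and 1311.9 at time 0, was not lower (0.38 ± 0.18, limma adjusted p = 0.215). In that line 79 genes (0.396%) were called higher and 31 (0.155%) lower. The Stra8 total change minus the Amh total change was called for 282 genes (1.41%), 157 (0.787%) higher and 125 (0.627%) lower. The largest upward were Tlcd4 (3.32), Hsd3b6 (3.04), Cnksr2 (2.59) and Tsx (2.35), and downward Cyp26a1 (-2.77), the retinol dehydrogenase gene Rdh10 (-2.56), Fstl3, a follistatin-like activin binder (-2.51), and the telomerase RNA gene Terc (-2.26). What the arrays labelled 4d in the Amh line hold was not tested further, and the 282 calls rest on them. The count was 129 without replicate 1 of Stra8 total at 4d, 177 without replicate 1 of the Amh arrays labelled 4d, and 167 without replicate 1 of Amh at time 0, and leaving out any other compared array gave 204 to 305.

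Within the Stra8 total RNA course, the step to 4d followed 48h (4 arrays). Against 48h, 22 genes (0.11%) were called higher at 4d and 5 (0.0251%) lower, 27 in all (0.135%). The largest upward were Meioc (1.96), Dmrtb1 (1.52), Esx1 (1.48) and Tsx (1.43), and downward Tmem255a (-1.61), the protease gene Pcsk6 (-1.16), Map7d3 (-1.13) and Pla2g5 (-1.05). Dmrtb1 had 1083.6 and 888.4 at 4d, against 281.5, 431.6, 377.5 and 300.1 at 48h. Kit had already separated from time 0 by 48h, with 2011.4, 1883.7, 1690.7 and 2413.4 at 48h and a 4d against 48h difference of 0.13 (limma adjusted p = 0.945). The count against 48h was 10 without 4d replicate 1.

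Time points of this course all share the time 0 arrays, so their changes from time 0 are given side by side. Dmrtb1 was at 0.16 at 12h, 0.11 at 24h, 0.87 at 48h, 2.39 at 4d, 1.76 at 6d and 1.26 at 8d. Of these 6 times it had its highest mean at 4d. The arrays labelled 4h are left out of this course, and Dmrtb1 had 171.8, 1793.7 and 2201.6 in them, so 2 of these lay above both 4d arrays. Meioc was at 0.27 at 12h, 0.46 at 24h, 0.11 at 48h, 2.07 at 4d, 4.00 at 6d and 3.77 at 8d, so 4d lay between the early and the late values. Hsd3b6 was at 0.95, 0.92, 1.70, 2.78, 3.73 and 3.87 at the same 6 times. Amh was at -0.55, -1.21, -0.61, -1.22, -2.07 and -2.81. Hsd17b1 had its change early, at -2.88 at 12h, -2.57 at 24h and -1.98 at 48h, and was at -2.46 at 4d, -3.56 at 6d and -3.55 at 8d. Stra8 was at 2.32, 1.88, 1.03, 0.83, 3.68 and 1.91 at the 6 times, and its 4d value without replicate 1, 1.48, lay above that of 48h. Dlx1, a homeobox gene, was at 2.04 at 48h and 1.10 at 4d. The step of Dlx1 between 48h and 4d was -0.94 (limma adjusted p = 0.0153), under the fold minimum, and that of Stra8 was -0.20 (limma adjusted p = 0.922).

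**Figure D5:**
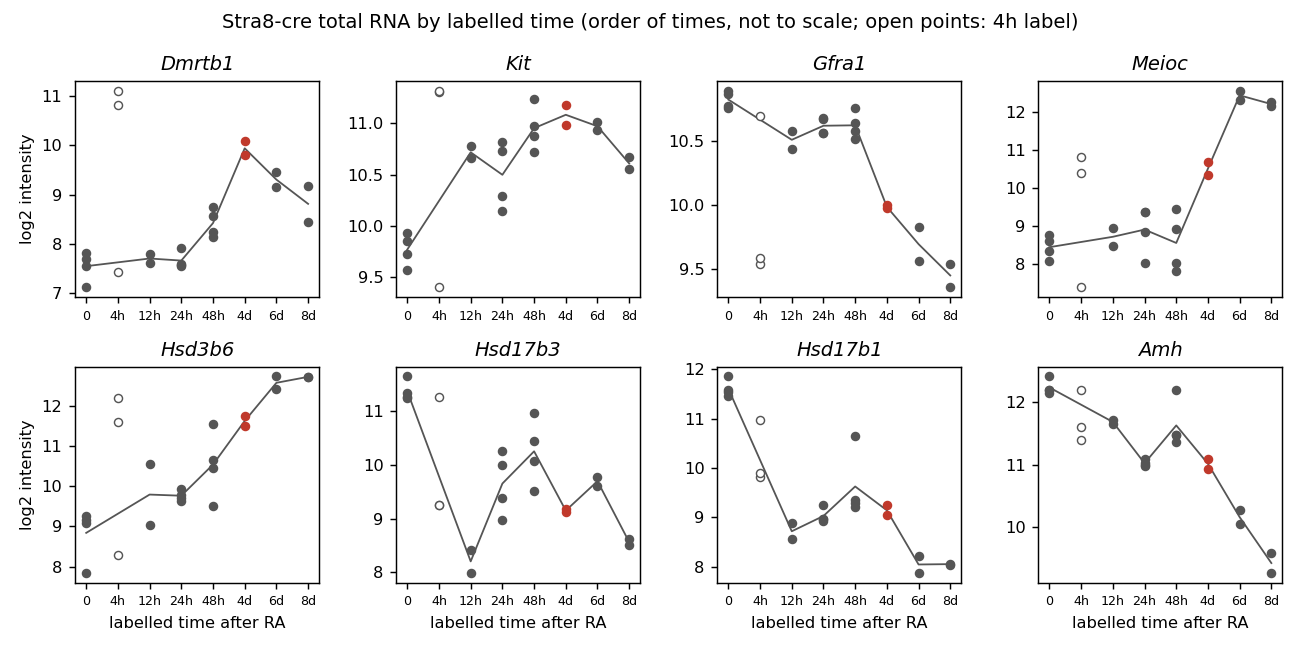
Log2 intensity of 8 genes in Stra8-cre total RNA by labelled time after RA (in order, not to scale), 1 point per array, with 4d in red, arrays labelled 4h as open points and a line through the group means that leaves 4h out. Dmrtb1 is highest at 4d among the solid points, Meioc and Hsd3b6 are higher still at 6d, and Hsd17b1 is already low at 12h.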

How the data were processed

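Testis RNA from RNeasy columns was amplified (Ovation V2), labelled with biotin and hybridised to 1-colour arrays, per the labels' protocols. The authors deposited 1 intensity per probe set, made with RMA per the submitters' processing notes and on a linear scale, as their range shows. Its settings and software were not given in the sources used here. The log2 of each deposited value was taken with no other scaling. Array medians were 252.6 to 300.5 and the smallest values 25.1 to 26.3, so low signals are compressed towards a floor. The number of arrays limits the precision.

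Of 28853 probe sets, 5443 were not listed with a gene in the platform annotation and 1621 had several genes. The other 21789 were matched to RefSeq by gene ID for 99.6%, and the probe set with the highest mean stood for each of 999 genes with several. This left 19938 genes. Analysis used R 4.3.3 with limma 3.58.1 and data.table version 1.17.8, and Python 3.11.15, pandas 2.3.3, numpy 2.4.6 and matplotlib 3.10.9. A single model gave each of 35 labelled groups a mean over 77 arrays, moderated by empirical Bayes with an intensity trend, two-sided, with Benjamini-Hochberg adjustment. The fit was tested on simulated data.

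The text names 12 called genes per direction, those of largest difference whose arrays do not overlap, up to 4 called members per list, 4 each way in other comparisons, and a fixed set of germ and somatic markers, leaving out predicted and clone symbols. The members and gene lists were chosen with earlier results of these data known. Residuals of arrays with the same replicate number correlated at 0.28 and 0.235 between 4d and time 0. Against 48h they correlated at -0.202 and 0.237, and against IP RNA at 4d at 0.041 for both numbers. The labels do not say whether arrays with the same number belong together, so the fit has no replicate block. Alternatives were other scalings, filters, probe set rules, fits on fewer arrays, the replicate block and each array left out.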

Additional observations from a re-analysis of the deposited data

Results flagged for a closer look

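Hsd3b6 in time 0 replicate 3 had an intensity of 230.3, below the other 3 time 0 arrays. On log2 values its gap to the next array was 0.88 of the group's range, past Dixon's critical value for 4 samples, and on linear intensities it was 0.823, just under it. Chance picks out about 1 in 20 such groups.

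The change at 4d differed between total RNA and germ cell IP RNA of the Stra8 line for 281 genes by the interaction test. Among the named genes called in total RNA, the total change minus the IP change was positive for Sycp3 (1.49), Crabp1 (1.23), Epcam (1.19) and Egr2 (1.06). For Egr2 both changes were negative, and the IP change was the larger. The difference was negative for Hsd17b1 (-1.50), Gask1a (-1.40), Thbs2 (-1.12), Enpep (-1.04), C1qtnf3 (-1.03), Mmp23 (-1.03) and Vsnl1 (-1.03).

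The change also differed between total RNA of the Stra8 line and total RNA labelled 4d of the Amh line, for 282 genes. The Stra8 change minus the Amh change was positive for Tlcd4 (3.32), Hsd3b6 (3.04), Cnksr2 (2.59), Tsx (2.35), Rnf128 (2.29), Tc2n (2.24), Meioc (2.22), Slc27a2 (1.96), Smc1b (1.93), Crabp1 (1.92), Runx3 (1.63), Sycp3 (1.62), Ccne2 (1.6), Epcam (1.56), Ccnd1 (1.51), Iho1 (1.48) and Rbp4 (1.35). It was negative for Hsd17b3 (-2.08), Slc24a5 (-1.41), Pla2g5 (-1.33), Enpep (-1.29), Thbs2 (-1.06) and C1qtnf3 (-1.03). The Amh arrays labelled 4d had high RA targets, as given above, and which time they hold was not tested.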

How the results depend on the processing

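Without the 2-fold minimum 3396 genes passed for 4d against time 0, 2348 for total minus IP, 1172 for Stra8 minus Amh total and 783 for 4d against 48h. With each compared array left out in turn the counts ran from 177 to 228, from 148 to 730, from 129 to 305 and from 10 to 33 in the same order. Fitting the Stra8 arrays alone gave 11 calls for 4d against 48h. The replicate block gave 205, 265, 295 and 26, and changed no count by over 1.5 times. The remaining alternatives kept each of the 4 counts within 1.5 times of its main value. For 4d against time 0 they ran from 174 with time 0 arrays 1 and 2 alone to 244 with arrays 2 and 3 alone, the second set chosen after seeing the data. Median centring changed the share of total minus IP calls that were higher to 50.7%, against 59.4% unscaled. Of 58 named genes, 40 were called, and over the 20 settings that kept the 2-fold minimum the calls changed 9 times by losing the threshold (Stra6 4 times, Vnn1 3, Akr1c14 and Esr2 once each) and 2 times by gaining it (Stra8). No called value changed sign, while 11 of 359 uncalled values did. Of the genes named after their values were seen, the 3 miRNA genes lost the call under several settings, and Slc2a12 with time 0 arrays 1 and 4 alone (0.94). The causes were not tested. Called members of the differentiating list numbered 8 to 9, of the meiotic list 8 to 11, and of the Sertoli and Leydig lists 3 to 4 each where the 2-fold minimum was kept. The 4d group has 2 arrays, and genes near the floor such as Cyp26a1 allow no precise fold.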
